A study of Mus musculus with 2 samples.

Results

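The mucin genes followed here are Muc1, Muc2, Muc4, Muc5ac, Muc5b, Muc6, Muc13, Muc16 and Muc20. These 9 were chosen by gene symbol among the 32285 genes counted; the rule itself uses no measured value, although earlier results of these data were known when it was set. The RNA came from single cells of pancreatic tumours of KPPC mice, a mouse model of pancreatic ductal adenocarcinoma, given either vehicle or takinib, an inhibitor of the kinase TAK1, at 50 mg/kg. The mice were 6 weeks old and treatment lasted 14 days in both groups. All cells of both groups therefore carry the KPPC genotype, whose alleles and Cre driver are not spelled out in the labels. There was 1 droplet library (10x Genomics) per group. The number of mice behind each library is not given in the sources used here, and the vehicle library held cells with Y-linked transcripts and cells with Xist, so it contained cells of both sexes. With 1 library per group no test between groups was possible, and every interval below covers counting error only.

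Mucins are large glycoproteins whose serine- and threonine-rich stretches carry dense O-linked sugar chains. Gel-forming mucins are secreted and polymerise into mucus: Muc2 is the main mucin of intestinal goblet cells, Muc5ac of gastric surface cells, Muc6 of gastric neck and gland cells, and Muc5b of airway and salivary glands. Membrane mucins stay anchored at the apical surface, where they form part of the glycocalyx: Muc1 and Muc4 are widely expressed by glandular epithelia, Muc13 by intestinal epithelium, Muc16 (CA125) by mesothelium and ocular and reproductive tract epithelium, and Muc20 by kidney and other epithelia. The normal exocrine pancreas makes little gel-forming mucin, and gastric mucins such as Muc5ac and Muc6 are known from precursor lesions of pancreatic cancer.

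The 4 gel-forming genes lie side by side on mouse chromosome 7 (GRCm38, GENCODE annotation), within 239.629 kb. Muc6 (chr7:141633456-141655319) is on the minus strand. Muc2 (chr7:141690340-141754693), Muc5ac (chr7:141788972-141819231) and Muc5b (chr7:141839070-141873084) are on the plus strand. Muc2 carries the annotation's tag for a fragmented locus, so its gene model is incomplete. Muc1 is at chr3:89229057-89233381 on the plus strand, Muc13 at chr16:33794037-33819934 on the plus strand and Muc16 at chr9:18495455-18674530 on the minus strand. Muc4 (chr16:32735886-32782391, plus) and Muc20 (chr16:32777419-32797435, minus) overlap by 4973 bases on opposite strands. Whether counting used the strand is not stated, so reads of Muc4 and Muc20 in that overlap cannot be told apart.

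Promoter windows of 300 bases, from 250 before to 50 after the annotated start, were taken from RefSeq (GRCm38.p6) for 7 of the 9 genes. Entries for Muc5ac and Muc5b were not matched. Shown 5′ to 3′ on the gene's own strand are the windows of the neighbours Muc2 and Muc6, whose starts face away from each other and whose ratios between the libraries had opposite signs, and those of Muc1 and Muc4, the membrane mucins found in the most cell groups. Capitals mark matches, on either strand, to TATAAA, known from core promoters, AGATAA, of the kind bound by factors of the GATA family, TTTATNG (CDX factors), TGTTTNC (FOXA factors) or GGGCGG (SP and KLF factors).
Muc2, chr7:141690090-141690389, plus: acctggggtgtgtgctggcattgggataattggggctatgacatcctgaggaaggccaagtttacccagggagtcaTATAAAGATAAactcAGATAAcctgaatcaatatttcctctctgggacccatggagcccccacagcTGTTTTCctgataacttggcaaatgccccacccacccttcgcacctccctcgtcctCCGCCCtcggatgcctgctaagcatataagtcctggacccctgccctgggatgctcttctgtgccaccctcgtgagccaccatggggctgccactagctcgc
Muc6, chr7:141655344-141655643, minus: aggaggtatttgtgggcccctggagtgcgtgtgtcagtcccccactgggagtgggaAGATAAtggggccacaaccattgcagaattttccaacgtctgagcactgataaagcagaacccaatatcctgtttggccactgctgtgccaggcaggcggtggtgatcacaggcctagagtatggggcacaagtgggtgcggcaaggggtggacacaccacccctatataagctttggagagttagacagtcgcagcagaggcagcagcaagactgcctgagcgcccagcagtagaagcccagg
Muc1, chr3:89228806-89229105, plus: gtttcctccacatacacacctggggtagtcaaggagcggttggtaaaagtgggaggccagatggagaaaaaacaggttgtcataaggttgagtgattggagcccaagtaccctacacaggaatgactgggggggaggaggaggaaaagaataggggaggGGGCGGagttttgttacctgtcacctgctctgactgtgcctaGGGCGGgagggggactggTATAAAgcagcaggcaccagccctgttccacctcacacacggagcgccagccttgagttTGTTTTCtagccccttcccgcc
Muc4, chr16:32735636-32735935, plus: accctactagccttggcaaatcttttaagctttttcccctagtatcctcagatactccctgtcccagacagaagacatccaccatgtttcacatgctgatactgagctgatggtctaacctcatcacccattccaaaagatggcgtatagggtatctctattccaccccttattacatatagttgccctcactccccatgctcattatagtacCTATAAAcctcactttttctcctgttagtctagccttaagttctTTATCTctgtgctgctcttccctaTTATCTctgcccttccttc
Muc2 held 1 match to TATAAA, 2 to AGATAA, 1 to TGTTTNC and 1 to GGGCGG, with TATAAA and the first AGATAA sharing a base. Muc6 held a single AGATAA, at -194 from the start. Muc1 held TATAAA at -31, GGGCGG at -91 and -49, and TGTTTNC at 29. Muc4 held AGATAA on the minus strand at 8 and 32, and TATAAA at -36 overlapping a minus-strand TTTATNG at -37. Of all 32851 promoter windows of the same length, 13.6% held TATAAA, 11.2% AGATAA, 10.9% TTTATNG, 20.5% TGTTTNC and 35.7% GGGCGG. A match is a description of the letters and not a binding site.

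After filters on depth and mitochondrial content and removal of doublets, the vehicle library held 9558 cells at a median of 3556 UMIs and the takinib library 25183 at a median of 2887 UMIs (unique molecular identifiers, 1 per captured transcript). Clusters whose marker genes were epithelial split into 16 sub-clusters, of which 2 with markers of other cell types mixed in (172 vehicle and 625 takinib cells) were left out. The rest, 1680 vehicle cells (17.6%) and 1317 takinib cells (5.23%) with medians of 5059 and 7531 UMIs, are called epithelial-like. The epithelial markers summed to 8883 CPM (UMIs of a gene per 1000000 UMIs of the group) in vehicle and 9805 CPM in takinib cells, with all 10 detected in both. Neutrophil marker RNA moved with treatment: its 8 genes, all detected in both libraries, summed to 94.0 CPM in the vehicle and 3434 CPM in the takinib epithelial-like cells, and its part in the results below was not tested. Among kept cells, 359 barcodes occurred in both libraries, 4 of them epithelial-like in both. Of the 14 groups kept, those described are named by their leading genes, with immunoglobulin genes passed over. Ighg3 came first in the Gkn2-Tff1 cells and Ighv4-1 in the Cldn4-Duoxa2 cells. The mucin genes themselves were kept out of the clustering.

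The libraries differed in which epithelial groups they held. With at least 100 cells in each library, 2 groups could be compared between treatments: the Tff2-Gkn3 cells, led by gastric trefoil and gastrokine genes (262 vehicle and 177 takinib cells), and the Mmp7-Reg3b cells (206 and 241). The goblet-like group (led by Mptx1 and Spink4) had 100 vehicle cells and 1 takinib cell. Ductal carcinoma-like cells led by Sox11 and Cldn6 numbered 429 and 16. In the other direction, Cldn4-Duoxa2 cells numbered 23 and 424, enterocyte-like cells 0 and 74, and shallow Gkn2-Tff1 cells (median 1469 UMIs) 0 and 209. In these data, fewer cells of a type recovered from a tumour and fewer such cells in the tumour cannot be told apart. Groups of at least 30 cells, 9 in the vehicle and 7 in the takinib library, are used for levels by group, and macrophage-like cells (4729 and 6150 cells, medians of 3918 and 6188 UMIs), which should lack mucin transcripts, give the level of stray RNA.

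**Figure D1:**
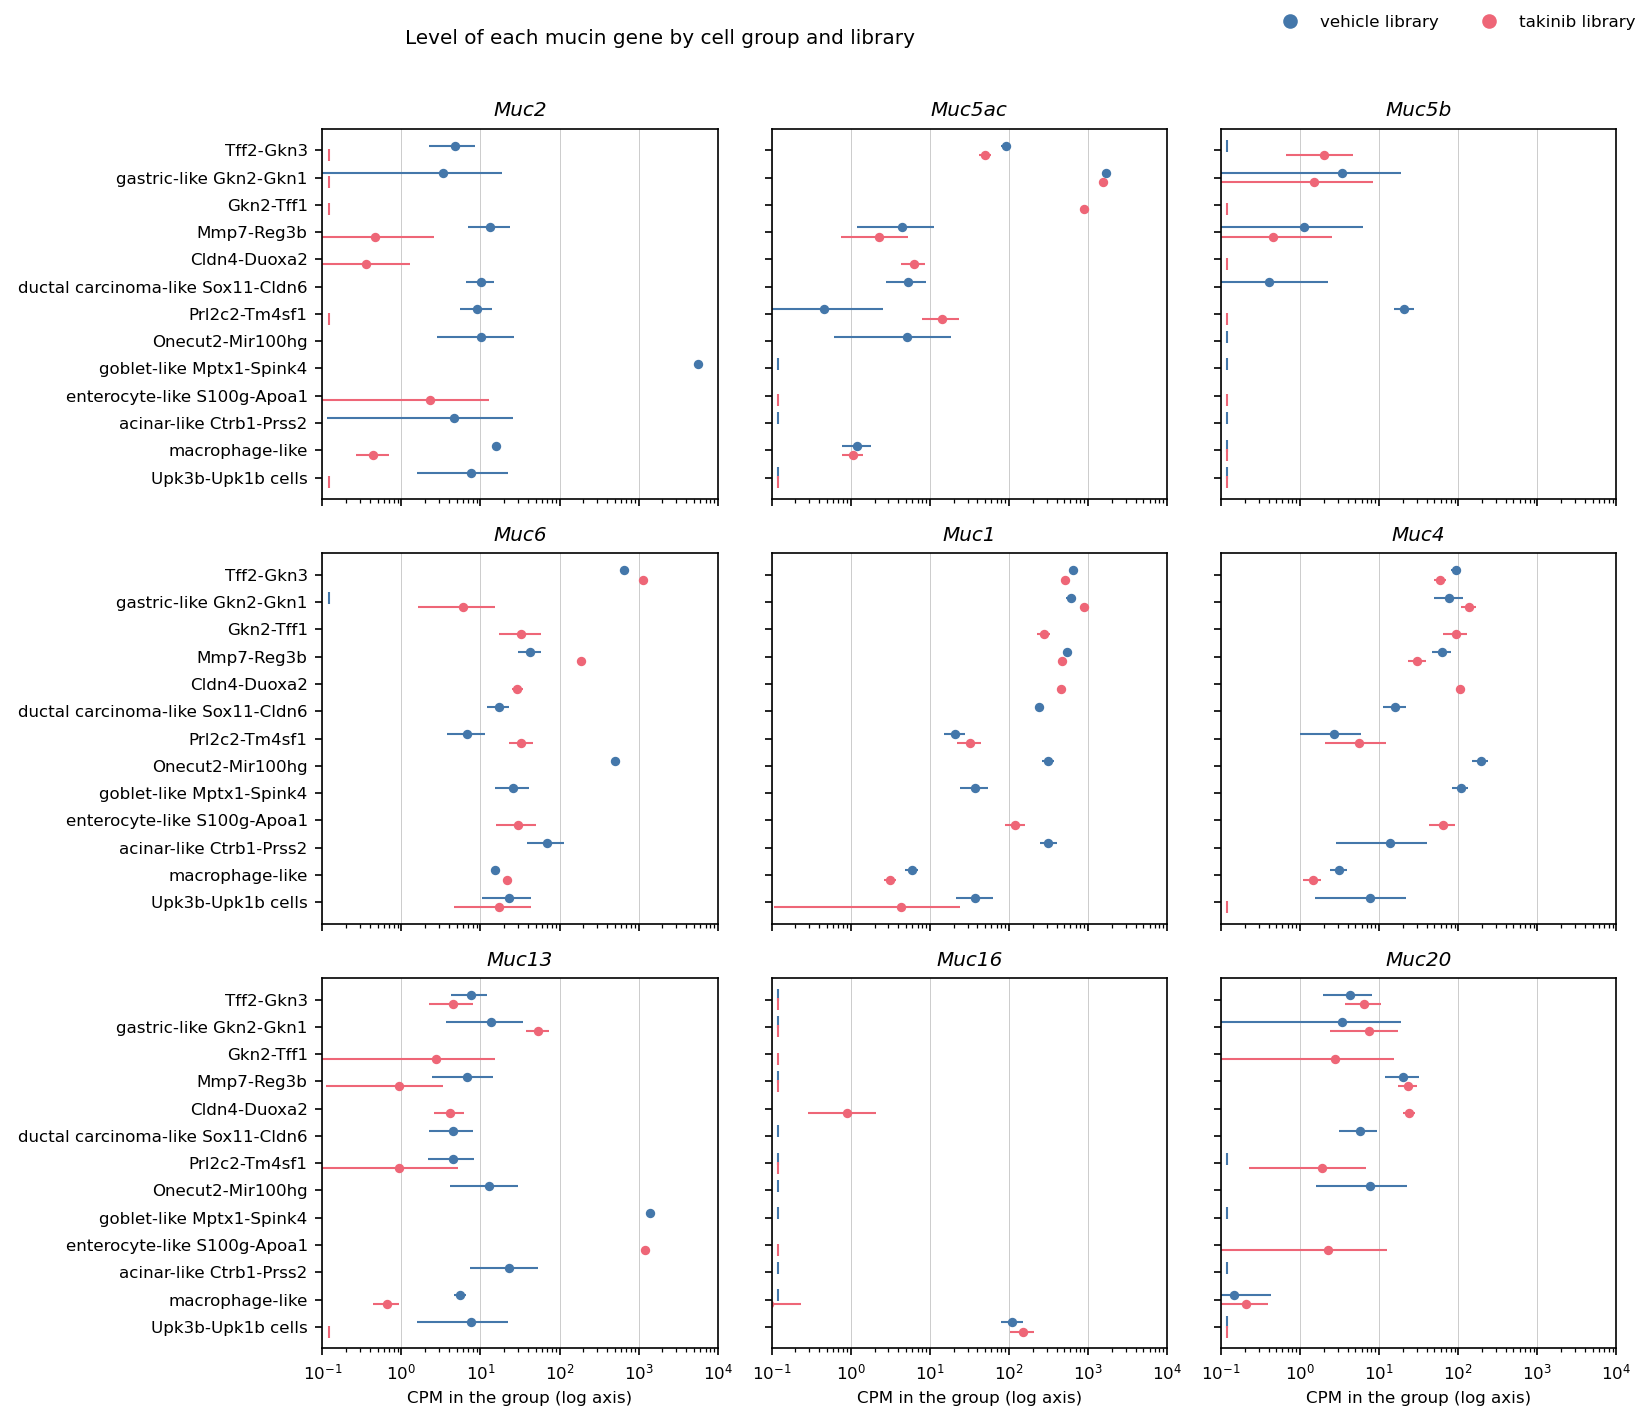
Level of each mucin gene (CPM, log axis, 95% Poisson interval) in each cell group, vehicle in blue and takinib in red, for the named groups of at least 30 cells plus the Upk3b-Upk1b cells (64 and 27 cells); a vertical tick at the left edge marks 0 UMIs. Muc2 stood at 5555 CPM in vehicle goblet-like cells and at or below 13.4 CPM in every other epithelial group shown, while Muc1 UMIs were found in all of them.

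Muc2 RNA was found mostly in the goblet-like cells of the vehicle tumour. These 100 cells held 3872 Muc2 UMIs, a level of 5555 CPM (95% Poisson interval 5381 to 5733), which was 84.8% of all Muc2 UMIs in kept vehicle cells. A Muc2 UMI was present in 59 of them (59.0% at a median of 6739 UMIs; 53.0% with each cell thinned to 1000 UMIs), against 4.06% of vehicle macrophage-like cells (1.25% thinned). The other 8 vehicle groups had 2.98 to 13.4 CPM, none above the 15.8 CPM of macrophage-like cells, and these levels are read as stray RNA. Barcodes of under 100 UMIs in the vehicle library, which hold free RNA, carried Muc2 at 107 CPM. The takinib epithelial-like cells held 4 Muc2 UMIs in 1317 cells (0.296 CPM), against 0.442 CPM in takinib macrophage-like cells. The single takinib cell of the goblet-like group had none, which still allows up to 416 CPM.

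Muc2 was uneven among goblet-like cells. The top 10 of the 100 cells held 48.0% of its UMIs, and the highest held 452. Goblet-like identity of the vehicle cells rested on other genes: Spink4 stood at 13577 CPM, the mucin-folding isomerase Agr2 at 4594 CPM, the lectin Zg16 at 1559 CPM and the trefoil factor Tff3 at 1493 CPM. Ang4, a further goblet marker, was at 0 UMIs. The single takinib cell of the group had Spink4 at 139 CPM and every other goblet marker, including Agr2, Zg16 and Tff3, at 0 CPM. Its name rests only on the group it clustered with. Of the goblet-like cells, 50 had Y-linked transcripts without Xist and 1 had Xist without Y-linked transcripts.

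Muc5ac marked the cells with gastric surface genes in both libraries. In the gastric-like group, led by Gkn2 and Gkn1, it stood at 1675 CPM (1531 to 1828) in 31 vehicle cells and at 1533 CPM (1440 to 1629) in 44 takinib cells, levels whose intervals overlap. The shallow Gkn2-Tff1 cells of the takinib library had 884 CPM (790 to 986). Below these, Tff2-Gkn3 cells had 92.1 CPM in the vehicle and 50.3 CPM in the takinib library, and no other group exceeded 14.1 CPM, a value that came from 15 UMIs in 1 cell. Macrophage-like cells had 1.22 and 1.07 CPM.

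The share of Muc5ac-positive cells followed a different order from the level. It was 77.4% of vehicle gastric-like cells (median 7442 UMIs), 36.4% of takinib gastric-like cells (median 13520) and 81.3% of Gkn2-Tff1 cells. Thinned to 1000 UMIs per cell the shares were 58.1%, 27.3% and 65.6%, against 0.148% and 0.114% of vehicle and takinib macrophage-like cells. In the takinib gastric-like group 10 cells held 94.1% of the Muc5ac UMIs, with up to 200 in a cell. In the Gkn2-Tff1 group the UMIs were spread over 170 of 209 cells with at most 6 in a cell. S100a8 and S100a9, neutrophil genes, summed to 17215 CPM in the Gkn2-Tff1 cells and to 2045 CPM in the takinib gastric-like cells, and what this contributes was not tested. The leading genes of the Gkn2-Tff1 cells over the other epithelial cells also included the immunoglobulin genes Ighg3 and Igkc. Gpnmb and Chil3, which were leading genes of macrophage-like clusters, were among them too. What these contribute was not tested either.

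Muc6 belonged to the Tff2-Gkn3 cells. It stood there at 657 CPM (623 to 692) in vehicle and 1124 CPM (1082 to 1167) in takinib cells. Next came the vehicle Onecut2-Mir100hg cells at 509 CPM (441 to 585), where 10 of 159 cells held 97.5% of the UMIs, and the takinib Mmp7-Reg3b cells at 185 CPM (167 to 204). The vehicle Mmp7-Reg3b cells had 42.3 CPM (29.9 to 58.0), and the gastric-like cells, where Muc5ac was high, had 0 UMIs in vehicle and 4 UMIs in takinib. Muc6 was also found as stray RNA: macrophage-like cells had 15.4 and 21.5 CPM, takinib neutrophil-like cells 45.9 CPM, takinib T-like cells 47.6 CPM, and vehicle barcodes of under 100 UMIs 164 CPM. Levels at or below these in epithelial groups of the same library are therefore read as background.

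Muc6 UMIs sat in few cells. In Tff2-Gkn3 cells 43.1% of vehicle and 46.3% of takinib cells had a UMI (medians 7152 and 12161 UMIs), and 20.6% and 20.3% did after thinning, against thinned shares of 1.86% and 2.21% in macrophage-like cells. The unthinned macrophage-like shares were 5.92% and 12.7%. The top 10 cells held 61.2% of the vehicle and 74.3% of the takinib Muc6 UMIs of this group, with up to 260 and 633 in a cell. Without its highest cell each library had 538 and 882 CPM.

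Muc5b was rare. The 46 UMIs in vehicle Prl2c2-Tm4sf1 cells, from 14 of 182 cells, gave 20.9 CPM (15.3 to 27.9) and were 92% of the library's Muc5b UMIs. The 64 takinib cells of that group had none, which allows up to 2.82 CPM. This group scored lowest of the 16 sub-clusters for epithelial markers (0.16). Col6a1, Col6a2 and Vim were among its leading genes over the other epithelial cells. Elsewhere no epithelial group had more than 5 UMIs, and no macrophage-like cell had any.

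Muc1 was the most widely shared member. Its level was above that of macrophage-like cells (5.93 and 3.14 CPM) in all 9 vehicle and all 7 takinib groups. In the vehicle library it was highest in Tff2-Gkn3 cells at 643 CPM (609 to 678) and gastric-like cells at 613 CPM (527 to 708), which overlap, followed by Mmp7-Reg3b cells at 550 CPM (502 to 600), which overlap the gastric-like cells. Acinar-like (316 CPM) and Onecut2-Mir100hg cells (312 CPM) could not be ordered. The ductal carcinoma-like Sox11-Cldn6 cells had 239 CPM (220 to 259). Goblet-like cells had 37.3 CPM and Prl2c2-Tm4sf1 cells 20.9 CPM (15.3 to 27.9). Both lie below the 52.2 CPM (36.2 to 72.9) of vehicle barcodes of under 100 UMIs, which hold free RNA. Vehicle endothelial-like cells had 17.2 CPM (12.1 to 23.7), which overlaps the Prl2c2-Tm4sf1 cells. Expression of Muc1 beyond stray RNA is therefore not shown for these 2 groups.

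In the takinib library Muc1 was highest in gastric-like cells at 902 CPM (832 to 977). Tff2-Gkn3 cells followed at 511 CPM (483 to 540), then Mmp7-Reg3b cells at 468 CPM and Cldn4-Duoxa2 cells at 458 CPM (440 to 476), whose intervals overlap. Gkn2-Tff1 cells had 275 CPM, enterocyte-like cells 121 CPM and Prl2c2-Tm4sf1 cells 32.0 CPM. Muc1 was spread evenly over cells: in Tff2-Gkn3 cells 91.2% of vehicle and 95.5% of takinib cells had a UMI, against 2.45% and 2.11% of macrophage-like cells, and 10 cells held only 14.9% and 18.9% of the UMIs.

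Muc4 followed Muc1 in part. Its top level was in vehicle Onecut2-Mir100hg cells, at 192 CPM (151 to 241). This interval overlaps that of takinib gastric-like cells at 136 CPM (109 to 167). These cells, vehicle goblet-like cells at 107.6 CPM (84.6 to 135) and takinib Cldn4-Duoxa2 cells at 104 CPM (96.2 to 113) could not be ordered among themselves. The Prl2c2-Tm4sf1 cells, low in Muc1, had 2.73 CPM of Muc4 in the vehicle library, no higher than macrophage-like cells at 3.11 CPM. Goblet-like cells were the exception to the shared pattern, with 36.0% of cells positive for Muc4 and 19.0% for Muc1.

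Muc13 was high in the cells with intestinal genes. Vehicle goblet-like cells had 1406 CPM (1319 to 1497) and takinib enterocyte-like cells, led by S100g and Apoa1, had 1215 CPM (1114 to 1322). These intervals overlap narrowly. No other group exceeded 53.8 CPM, the level of takinib gastric-like cells. Of goblet-like cells 94.0% had a Muc13 UMI (62.0% thinned), and of enterocyte-like cells, at a median of 3642 UMIs, 47.3% did (28.4% thinned), where 10 cells held 85.8% of the UMIs. Macrophage-like cells were positive in 2.07% (vehicle) and 0.439% (takinib). The enterocyte-like cells also carried S100a8 and S100a9 at 26215 CPM, and the part of this in their profile was not tested.

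Muc20 was low throughout. It stood at 24.0 CPM (20.1 to 28.4) in takinib Cldn4-Duoxa2 cells and at 20.03 CPM (11.9 to 31.7) and 23.0 CPM (17.1 to 30.4) in vehicle and takinib Mmp7-Reg3b cells, 3 values that cannot be ordered. All other groups were at or below 7.68 CPM.

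Muc16 was rare in epithelial cells. Epithelial-like cells held 2 vehicle and 5 takinib UMIs, the latter all in Cldn4-Duoxa2 cells, whose 0.895 CPM was above the 0.0930 CPM of macrophage-like cells, and the mixed sub-clusters held 8 more takinib UMIs (10.96% of that library's). A small group outside the epithelial clusters, split off after the clusters were seen, 64 vehicle and 27 takinib cells led by Igfbp5, Upk3b and Upk1b and with all 7 mesothelial markers detected in both libraries, held 44 and 35 UMIs, or 111 CPM (80.6 to 149) and 150 CPM (104 to 208). These cells held 95.7% of the vehicle and 47.9% of the takinib Muc16 UMIs, and 25.0% and 37.0% of them had a UMI.

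**Figure D2:**
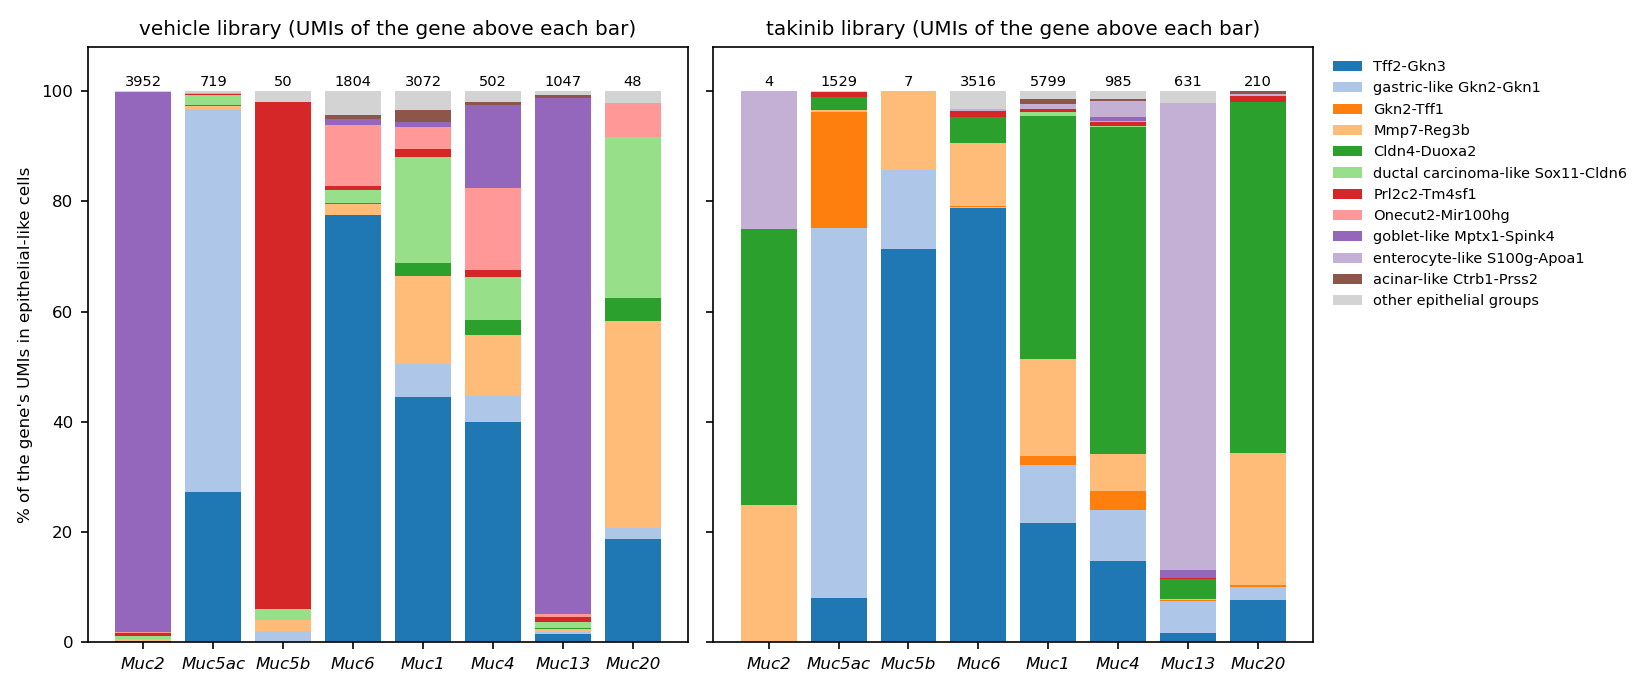
Share (%) of each gene's UMIs in epithelial-like cells that came from each cell group, vehicle at left and takinib at right, with the gene's UMIs in the library above each bar. Most Muc6 came from Tff2-Gkn3 cells in both libraries, whereas Muc13 came from goblet-like cells in the vehicle and enterocyte-like cells in the takinib library, and most Muc4 and Muc20 of the takinib library came from Cldn4-Duoxa2 cells.

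Over all epithelial-like cells, 3 of the 8 members with at least 50 UMIs differed more than 2-fold between the libraries, 1 higher and 2 lower in takinib. Of all 12771 genes with at least 50 UMIs, 14.7% did so (6.3% higher, 8.43% lower). With cells limited to at most 10% mitochondrial UMIs, 7 of the 8 passed, 4 higher and 3 lower, against 15.2% of 12127 genes. Ratios are log2 of takinib over vehicle CPM with no pseudocount, and the median over all genes was -0.15.

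The gel-forming mucins Muc2 and Muc5b were lower in the takinib library. Muc2 went from 3952 UMIs (352 CPM) to 4 UMIs (0.296 CPM), a log2 ratio of -10.22 (-12.09 to -8.86). Muc5b went from 50 UMIs (4.45 CPM) to 7 UMIs (0.518 CPM), a ratio of -3.10 (-4.49 to -1.96). Muc13, with 1047 UMIs (93.2 CPM) in vehicle and 631 UMIs (46.7 CPM) in takinib cells, had a ratio of -0.998 (-1.14 to -0.85) and lay just inside the 2-fold limit. It passed that limit in 6 of 18 other settings, with ratios from -3.63 to 2.35.

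Muc20 was the 1 member past 2-fold in the other direction, with 48 UMIs (4.27 CPM) in vehicle and 210 UMIs (15.5 CPM) in takinib cells, a ratio of 1.86 (1.40 to 2.35). The remaining 4 were higher in the takinib library by less than 2-fold. Muc1 stood at 273 and 429 CPM, a ratio of 0.65 (0.59 to 0.71), and Muc4 at 44.7 and 72.8 CPM, a ratio of 0.71 (0.55 to 0.86). Muc5ac stood at 64.0 and 113 CPM (0.82, interval 0.69 to 0.95), and Muc6 at 161 and 260 CPM (0.70, interval 0.61 to 0.78). Of 18 other settings, Muc5ac passed 2-fold in 7, with ratios from -0.26 to 4.04, Muc4 in 3, Muc6 in 1 and Muc1 in 0.

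In Tff2-Gkn3 cells the ratios of Muc1, Muc4 and Muc5ac had the opposite sign. There Muc1 was lower in the takinib library, at 643 against 511 CPM (log2 ratio -0.33, -0.44 to -0.22). Muc4 was also lower, at 94.49 against 58.8 CPM (-0.68, -1.002 to -0.37), as was Muc5ac, at 92.1 against 50.3 CPM (-0.87, -1.21 to -0.54). Muc6 remained higher, at 657 against 1124 CPM (0.78, 0.68 to 0.87). None of these 4 members passed 2-fold, against 8.96% of 8106 genes in this group (4.06% higher, 4.9% lower). Muc6 passed it in 5 of 11 other settings, and the ratios of Muc1 ranged from -0.52 to -0.02 over them. Over 10 settings Muc5ac ranged from -1.11 to 1.14, with the sign turned in 2, and Muc4 from -0.70 to 0.11, with it turned in 1. The Muc5ac value rested on 30 vehicle and 17 takinib cells with a UMI, of which 10 held 87.2% and 93.5% of the UMIs.

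In Mmp7-Reg3b cells 2 of 4 members passed 2-fold, 1 in each direction, against 9.62% of 7089 genes (5.06% higher, 4.56% lower). Muc4 was lower in takinib cells, at 62.3 against 30.4 CPM (log2 ratio -1.04, -1.57 to -0.50). Muc6 was higher, at 42.3 against 185 CPM (2.13, 1.65 to 2.65), with 80.8% of its takinib UMIs in 10 of 241 cells. Muc1 was slightly lower (550 against 468 CPM, -0.23, -0.39 to -0.08), and Muc20, at 20.03 and 23.0 CPM, had a ratio of 0.20 whose interval, -0.60 to 1.07, includes no difference. The vehicle Muc6 level here was above that of macrophage-like cells (15.4 CPM) and near the 33.3 CPM of neutrophil-like and 38.0 CPM of B-like cells of the same library. It was below the 164 CPM of vehicle barcodes of under 100 UMIs. By the rule given above it is read as background, so the size of this Muc6 ratio is not known. The Muc6 value also depended on how cells were clustered: with a finer first clustering (Leiden resolution 2) it was -0.31, and with a coarser one (resolution 0.5) 0.44.

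**Figure D3:**
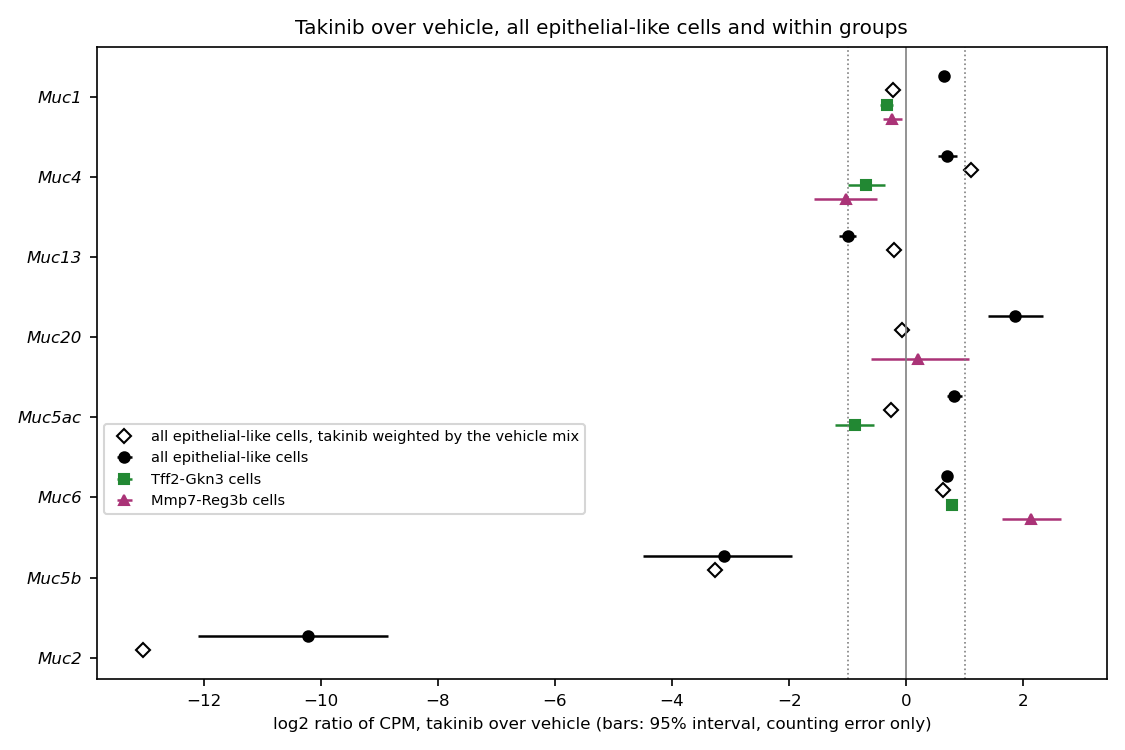
Log2 ratio of CPM, takinib over vehicle, for 8 members in all epithelial-like cells (black circles), in Tff2-Gkn3 cells (green squares) and in Mmp7-Reg3b cells (purple triangles), with 95% counting intervals; open diamonds give all epithelial-like cells with the takinib groups weighted by the vehicle mix, and dotted lines mark 2-fold. Muc1, Muc4 and Muc5ac lie right of 0 over all cells and left of 0 within the groups shown, and Muc6 lies right of 0 throughout. The diamonds of Muc4, Muc13 and Muc2 rest on 1 takinib cell of the goblet-like group.

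After thinning, the share of cells with a Muc1 UMI was 45.4% (39.3 to 51.7) in vehicle and 35.6% (28.6 to 43.1) in takinib Tff2-Gkn3 cells, and 35.9% and 34.4% in Mmp7-Reg3b cells. Muc4 shares were 9.54% and 6.78% in Tff2-Gkn3 cells and 7.28% and 4.15% in Mmp7-Reg3b cells. Muc6 shares were 20.6% and 20.3%, and 3.88% and 6.64%. The intervals of each pair overlap.

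**Figure D4:**
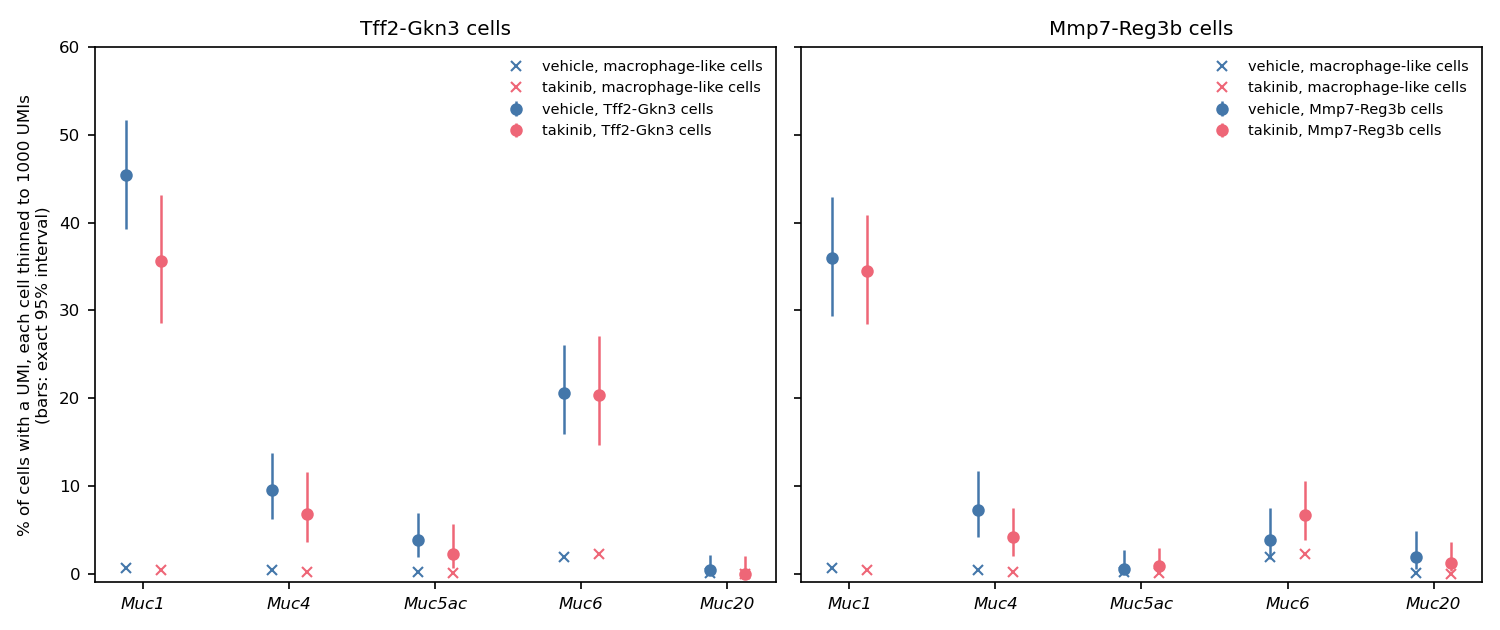
Share of cells (%) with a UMI of each gene after every cell was thinned to 1000 UMIs, in Tff2-Gkn3 (left) and Mmp7-Reg3b cells (right), vehicle in blue and takinib in red, with exact 95% intervals; crosses give macrophage-like cells. For Muc6 in Tff2-Gkn3 cells the shares were 20.6% and 20.3% although the CPM differed.

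The pooled ratios mix groups that the libraries held in different numbers. When takinib group levels were weighted by the vehicle mix of groups, Muc1 had a ratio of -0.23, Muc5ac of -0.26 and Muc20 of -0.07, while Muc6 had 0.62, Muc5b -3.27 and Muc13 -0.20. The same weighting gave Muc4 1.12. The Muc4 and Muc13 values rested on the single takinib cell of the goblet-like group, which had 8 Muc4 and 9 Muc13 UMIs (1247 CPM of Muc13). Over the 4 groups with at least 30 cells in each library (681 and 526 cells) the ratios were -0.18 for Muc1, -0.48 for Muc4, -0.23 for Muc5ac, 0.86 for Muc6, -0.34 for Muc13 and 0.55 for Muc20.

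Smaller groups gave values in the other direction for Muc1 and Muc4. In gastric-like cells (31 and 44) Muc1 stood at 613 and 902 CPM, a ratio of 0.56 (0.32 to 0.80), and Muc4 at 77.0 and 136 CPM, a ratio of 0.82 (0.15 to 1.55). Muc5ac had a ratio of -0.13 (-0.28 to 0.03) there. In Prl2c2-Tm4sf1 cells (182 and 64) Muc6 stood at 6.82 and 32.9 CPM, with 21 of its 35 takinib UMIs in 1 cell.

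Sex and treatment were not balanced. No takinib cell had a UMI of the Y-linked genes Ddx3y, Uty, Kdm5d or Eif2s3y, whereas 800 vehicle epithelial-like cells had Y-linked transcripts only and 201 had Xist only. Muc2 stood at 378 CPM in the former and 23.7 CPM in the latter, Muc5ac at 79.5 and 6.87 CPM, Muc13 at 90.9 and 9.17 CPM and Muc4 at 46.9 and 24.4 CPM. Muc1 (251 and 312 CPM) and Muc6 (162 and 150 CPM) were closer. Muc5b had 43 UMIs in the Y-linked cells and 0 in the Xist cells.

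With the Xist-only vehicle cells as the reference, Muc13 turned from lower to higher in takinib cells, with a log2 ratio of 2.35. Muc5ac had 4.04, Muc4 1.58, Muc20 2.35, Muc1 0.46 and Muc6 0.79, and 4 of 6 members were past 2-fold, all higher, against 18.2% of 11630 genes (9.03% higher, 9.14% lower). Muc2 and Muc5b fell below 50 UMIs and had no value. Within Tff2-Gkn3 cells the reference of 32 Xist-only cells turned Muc5ac to 1.14 and Muc4 to 0.11. Animal, sex and treatment cannot be told apart for these genes.

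Few cells carried several mucins. After thinning, no member was detected in 64.5% of the vehicle and 54.2% of the takinib cells of epithelial type, 27.7% and 38.2% had 1, and 6.90% and 6.83% had 2. Muc1 and Muc4 occurred together in 41 vehicle cells, where independence would give 20.9, and in 33 takinib cells, where it would give 22.6. Within single groups the count was 13 against 11.4 in vehicle Tff2-Gkn3 cells and 4 against 4.27 in takinib ones. It was 8 against 5.39 in vehicle Mmp7-Reg3b cells and 4 against 3.44 in takinib ones. Vehicle Onecut2-Mir100hg cells had 9 against 4.74 and vehicle Sox11-Cldn6 cells 4 against 1.93. Takinib Cldn4-Duoxa2 cells had 17 against 10.95 and takinib Gkn2-Tff1 cells 2 against 1.87. Muc2 and Muc13 occurred together in 31 vehicle cells against 3.21, all of them goblet-like, and within goblet-like cells independence would give 32.9. Muc5ac and Muc6, the surface and gland mucins, shared 1 vehicle cell (1.92 under independence) and 5 takinib cells (9.72).

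Over the 16 group-by-library units of at least 30 cells, the genes most alike to each member were as follows, with Pearson r of log2(CPM + 10) among 11273 genes and no test, since units share libraries and the highest of many values is shown. Muc1 was closest to Ctse (gastric cathepsin E, r = 0.96), Slc35f5 (0.93) and Syngr1 (0.92). Muc2 was closest to Mptx1, Aqp4 and Sval1 (each 0.99), of which Mptx1 and Sval1 lead the goblet-like cells. Muc4 was closest to Tmem45b (0.92), Tmprss2 (a membrane protease, 0.91) and Ibtk (0.89). Muc5ac was closest to the gastrokines Gkn1 and Gkn2 (each 0.96) and Gm3776 (0.94). Muc6 was closest to F5 (coagulation factor V, 0.82), Nptx2 (0.81) and Kcne3 (0.78), Muc13 to Clec2h (0.95) and the brush-border protocadherins Cdhr5 and Cdhr2 (each 0.94), and Muc20 to Crp (0.87), Entpd2 (0.86) and Igsf1 (0.86). Among the members themselves Muc2 and Muc13 had r = 0.64, Muc1 and Muc4 0.62, Muc1 and Muc20 0.61 and Muc1 and Muc5ac 0.51.

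Genes that make, fold and regulate mucins were compared over all epithelial-like cells, again against 14.7% of all genes past 2-fold and a median of -0.15. Of 10 polypeptide GalNAc transferases, which attach the first sugar, 9 had enough UMIs and none passed 2-fold (median -0.29), from Galnt3 at 0.16 to Galnt2 at -0.72. Of 14 enzymes that extend or cap O-glycans, 11 were measured and none passed (median 0.17), from the sialyltransferase St3gal4 at 0.50 to St6galnac2 at -0.95. Of 14 folding and granule partners 13 were measured and 5 were lower (median -0.57): Spink4 (-4.08), Zg16 (-2.85), Tff3 (-2.51), Fcgbp (-1.48) and Clca1 (-1.32). Tff1, the gastric trefoil factor, was the highest of them at 0.77.

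Of those 5, Spink4, Zg16 and Tff3 had their highest level in the vehicle goblet-like cells, which the takinib library all but lacked. Clca1 was instead highest in the gastric-like cells, at 1397 CPM in vehicle and 324 CPM in takinib, as was Fcgbp at 767 and 214 CPM. Of 16 secretory and gastrointestinal transcription factors, 14 were measured and 1 was lower (median 0.19): Atoh1, the goblet-lineage factor, had 70 UMIs in vehicle, all in goblet-like cells, and 0 in takinib cells, at least 28.1-fold lower against a floor of 3 UMIs over the group. Elf3 was the highest at 0.98. Of 10 partners of membrane mucins none passed (median -0.09), from mesothelin, Msln, at 0.86 to Egfr at -0.84.

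Lists with no gene past 2-fold over all epithelial-like cells had some past it within the 2 compared groups. In Tff2-Gkn3 cells, where 8.96% of all genes passed and their median was -0.08, 4 of 10 partners of membrane mucins did (median -0.29): the galectin Lgals3 (69.1 and 193 CPM, log2 ratio 1.48) and Msln (1.12) were higher, and the receptor Egfr (-1.15) and the sheddase Adam17 (-1.21) were lower. In Mmp7-Reg3b cells, where 9.62% of all genes passed and their median was -0.02, Lgals3 (1.06) was higher and Egfr (-1.27) was lower (list median -0.23). The 9 GalNAc transferases had a median of -0.62 in Tff2-Gkn3 cells, with none past 2-fold, and of -0.40 in Mmp7-Reg3b cells, with Galnt7 (-1.05) and Galnt10 (-1.07) lower. Of the other lists, O-glycan extension and capping had 1 of 9 higher and 1 of 9 lower in Tff2-Gkn3 cells and none in Mmp7-Reg3b cells. Folding and granule partners had 2 of 11 higher in the former and 1 of 7 lower in the latter, and transcription factors had none of 12 and 1 of 12 lower. Of the genes named here, Msln, Egfr in Tff2-Gkn3 cells and Galnt7 were chosen after their values were seen.

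The table also counts 4 other genes with a Muc symbol. Muc3, an intestinal membrane mucin, went from 784 UMIs (69.8 CPM) in vehicle epithelial-like cells, 721 of them in goblet-like cells, to 11 UMIs (0.813 CPM) in takinib cells. Muc3a stood at 9.61 and 5.32 CPM, and Muc15 and Muc19 had none in epithelial-like cells.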

How the data were processed

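Single-cell RNA of 1 vehicle and 1 takinib library was analysed from raw UMI counts per gene and barcode, deposited by the authors as matrices; per the file headers they were made with Cell Ranger 4 (vehicle) and 6.1.1 (takinib), while the submitters' processing notes name Cell Ranger 2.1.1, STAR 2.0.4b, featureCounts 1.45 and mm10. The vehicle matrix was unfiltered (704261 barcodes) and the takinib matrix held 34158 barcodes of at least 500 UMIs, so the depth limits of the deposited tables differed. Total counts were 80850334 and 139292875 UMIs. Counting strand and mice per library are not given in the sources used here.

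Barcodes were kept (9872 and 26790) when they had 1000 UMIs or more, 500 genes or more and no more than 20% of UMIs from mitochondrial genes. Scrublet removed 314 vehicle doublets; its automatic threshold did not work on the takinib library, where the top 6% by score (1607) were left out instead. Cells were clustered with scanpy 1.11.5 (2000 variable genes without the mucin genes, 30 components, 15 neighbours, Leiden resolution 1, sub-clusters 0.5) and named from marker lists, and the rules for naming and for mixed groups were set after the clusters were seen. UMIs were summed per group and library. Levels have exact Poisson intervals, shares exact Clopper-Pearson intervals and ratios exact conditional binomial intervals, all at 95% and covering counting error only. A ratio past 2-fold with at least 50 UMIs over both libraries was counted as a difference in size, with no p-value. A floor is 3 UMIs over the group. The calculation was checked on simulated counts.

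The members and lists were chosen with earlier results of these data known. All 9 members were named, with the 3 genes of highest correlation for each member of at least 100 UMIs and, from each list, the highest and lowest ratio. Zg16, Tff3, Fcgbp and Clca1 were named after their values were seen. Gene positions came from GENCODE on GRCm38, which holds 32158 of the 32285 gene IDs (99.6%). Other filters, clusterings, scalings and reference cells were tried as alternatives. A single epithelial group is not reported by name here and enters only counts and ranges over groups.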

Additional observations from a re-analysis of the deposited data

Results flagged for a closer look

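Muc1 and Muc4 had ratios of opposite sign in different cell groups, and the difference between the groups was not tested. For Muc1 the log2 ratio of takinib over vehicle was 0.56 in gastric-like cells, -0.33 in Tff2-Gkn3 cells and -0.23 in Mmp7-Reg3b cells. For Muc4 it was 0.82 in gastric-like cells, -0.68 in Tff2-Gkn3 cells and -1.04 in Mmp7-Reg3b cells. The counting intervals of the gastric-like values, 0.32 to 0.80 for Muc1 and 0.15 to 1.55 for Muc4, lay above 0, and those of the other groups lay below 0. The gastric-like group had only 31 and 44 cells. After thinning to 1000 UMIs, 45.2% of vehicle and 43.2% of takinib gastric-like cells had a Muc1 UMI, and the takinib Muc1 level there was 659 CPM, against 902 CPM unthinned.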

How the results depend on the processing

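No paired analysis was possible because each treatment had 1 library. The count of members past 2-fold over all epithelial-like cells, 3, became 7 with at most 10% mitochondrial UMIs, 1 with 10 CPM added and 1 with the vehicle mix over groups of at least 30 cells, an alternative added after seeing the data. The count within groups, 2, became 0 with at least 2000 UMIs and 1000 genes, 0 with thinning, 1 with no doublets removed and 1 with 10 CPM added. The first 3 of these within-group settings left fewer members or groups to compare, and otherwise the cause was not tested. With the members allowed among the variable genes no group had 100 cells in each library, so the within-group count was not run. Among values past 2-fold the direction turned for Muc20 over all cells with the vehicle mix (-0.0696) and for Muc6 in Mmp7-Reg3b cells at Leiden resolution 2 (-0.31). Among values within 2-fold the sign also turned for Muc6 over all cells with thinning (-0.0175), for Muc5ac in Tff2-Gkn3 cells at resolution 2 (0.38), for Muc1 (0.0993) and Muc20 (-0.21) in Mmp7-Reg3b cells at resolution 0.5, and in the vehicle-mix and Xist-only comparisons given above. Thinning moved the level of Muc1 in takinib gastric-like cells to 659 CPM, of Muc5b in vehicle Prl2c2-Tm4sf1 cells to 10.99 CPM and of Muc6 in takinib Tff2-Gkn3 cells to 1023 CPM. Muc2 stayed past 2-fold lower in all 16 alternatives that gave it a value (-13.05 to -5.13) and Muc5b in 14 of 15. The -13.05 came from the vehicle mix, where the takinib goblet-like level was 0 UMIs in 1 cell, so its size is not a measured one. The groups themselves depended on the clustering: the best-matching group shared between 31.07% and 74.37% of Tff2-Gkn3 cells and between 28.99% and 85.75% of Mmp7-Reg3b cells with the group used. Muc5b, Muc16 and Muc20 had the fewest UMIs in vehicle epithelial-like cells (50, 2 and 48), so depth limits what can be read from them.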

Other observations

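The 2 mixed sub-clusters left out of the epithelial-like cells, 172 vehicle and 625 takinib cells, held 26.9% of takinib Muc1 UMIs, 33.5% of Muc20, 30.3% of Muc6, 18.8% of Muc4 and 15.6% of Muc5ac. They also held 8 of the 16 takinib Muc5b UMIs, more than the 7 in the epithelial-like cells, and 10.96% of takinib Muc16. Outside the epithelium, vehicle fibroblast-like cells had 26.9 CPM of Muc2 and T-like cells 19.0 CPM, and takinib plasma-like cells had 78.0 CPM of Muc6.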
